A study of Mus musculus with 18 samples.

Results

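Chromatin accessibility was examined around 37 genes of the lysosome and its cathepsins in mouse bone marrow-derived macrophages. A peak belonged to a gene when it overlapped the window of 25 kb on either side of the 5′ end of that gene's record in the mm9 annotation. By this rule 522 of the 194284 ATAC-seq peaks were member peaks, 176 of them among the 36670 peaks in the authors' promoter table and 346 among the 157614 in their distal table. All 37 genes had member peaks, from 7 to 23 per gene with a median of 14. Another gene's 5′ end was nearer to 175 of the member peaks, and 6 peaks lay within reach of both Ctsk and Ctss.

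The macrophages came from the bone marrow of 3 Il10-/- mice on the C57BL/6J background, 12-week-old males, cultured for 6 days with medium conditioned by L929 cells, a fibroblast line that secretes the macrophage growth factor CSF1. Matched samples gave 3 libraries in each of 6 conditions, 18 libraries in all, and every group, controls included, lacked endogenous Il10. Unstimulated cells received no agent. The other groups received 500 nM (+)-JQ1, an inhibitor that displaces BET proteins from acetylated chromatin, or 10 ng/mL IL-10, an anti-inflammatory cytokine, or neither, for 12 h, and then 50 ng/mL LPS, the bacterial cell wall component sensed by TLR4, or PBS for 4 h, and all cells were collected after 16 h. The groups without LPS are called unstimulated, (+)-JQ1 alone and IL-10 alone, and those with it LPS, LPS + IL-10 and LPS + (+)-JQ1. The comparisons asked how LPS changed accessibility and how (+)-JQ1 or IL-10 changed it in resting and in LPS-treated cells. The paper lists a vehicle control among the 12 h treatments before LPS, and untreated, unstimulated cells as a further control. In comparisons with unstimulated cells any effect of a vehicle cannot be told apart from that of LPS or the agent. ATAC-seq marks DNA that the Tn5 transposase can reach, such as active promoters and enhancers, and it measures neither transcription nor enzyme activity.

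Lysosomes are the acidic organelles in which macrophages break down what they engulf and what autophagy delivers. Cathepsins cut proteins there, other hydrolases digest glycans and lipids, the V-ATPase pumps in the protons that these enzymes need, and membrane proteins such as LAMP1 and LAMP2 line the organelle. Many of these genes are bound at their promoters by TFEB, MITF and related factors, which recognize an E-box within a longer palindrome known as the CLEAR element.

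The libraries held between 12020526 and 25908198 counts in peaks. Normalized counts below are counts scaled by TMM to a common library size, and all values come from 3 libraries per group. Replicate 1 of every group was sequenced in lane 5 and replicate 3 in lane 6, while replicate 2 was in lane 5 without LPS and in lane 6 with LPS. All 7 macrophage marker genes had a promoter peak, at the 67.4th to 98.0th percentile of all promoter peaks per kb. Of other cell types' markers, 2 of 4 T cell, 3 of 4 B cell, 2 of 4 neutrophil, 3 of 4 fibroblast, 2 of 3 erythroid and 3 of 3 epithelial genes also had one, the neutrophil genes at the 66.0th and 80.2nd percentile. These are bulk samples, in which fewer cells of a type and less accessibility per cell cannot be told apart.

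The promoter sequences are shown first because they held the best-known regulatory sequence of this gene group. Of the 37 members, 12 (32.4%) had the E-box CACGTG between 250 bases before and 50 bases after the 5′ end, against 7.78% of the promoters of 22380 protein-coding genes. The longer CLEAR core TCACGTGA, which contains that E-box, was in 5 (13.5%) against 1.08%, and the related M-box TCATGTGA in 4 (10.8%) against 0.961%. The AP-1 motif TGANTCA was in 5 (13.5%) against 6.93%, and the PU.1 motif GAGGAAGT in 4 (10.8%) against 3.12%. Both strands were searched; CACGTG, TCACGTGA and TGANTCA read the same on both. A match describes the letters and is not a bound site. The sequences run from 180 bases before to 30 bases after the 5′ end, on the gene's strand, in build mm9 (NCBIM37), with matches to any of the 5 motifs in capitals. All 5 members with a CLEAR core are given, then Lamp1 with its repeated E-boxes, Tpp1 with a pair of M-boxes, Ctsd with a single E-box and Atp6v0d2 with an AP-1 motif.
Ctsb, chr14:63741122-63741331, plus strand: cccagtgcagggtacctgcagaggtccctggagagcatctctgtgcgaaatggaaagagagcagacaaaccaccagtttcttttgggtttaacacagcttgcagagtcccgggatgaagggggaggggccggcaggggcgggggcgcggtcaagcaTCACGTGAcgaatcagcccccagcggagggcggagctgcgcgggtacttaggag
Hexa, chr9:59387294-59387503, plus strand: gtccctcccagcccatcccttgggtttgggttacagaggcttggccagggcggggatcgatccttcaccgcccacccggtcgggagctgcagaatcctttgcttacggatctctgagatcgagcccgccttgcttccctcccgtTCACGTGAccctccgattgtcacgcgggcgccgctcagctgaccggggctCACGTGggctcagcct
Gla, chrX:131135635-131135844, minus strand: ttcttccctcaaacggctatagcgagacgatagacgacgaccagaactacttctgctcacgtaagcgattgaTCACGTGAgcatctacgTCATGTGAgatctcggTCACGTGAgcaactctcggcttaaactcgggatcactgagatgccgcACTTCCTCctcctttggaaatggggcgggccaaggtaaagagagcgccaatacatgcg
Mcoln1, chr8:3500277-3500486, plus strand: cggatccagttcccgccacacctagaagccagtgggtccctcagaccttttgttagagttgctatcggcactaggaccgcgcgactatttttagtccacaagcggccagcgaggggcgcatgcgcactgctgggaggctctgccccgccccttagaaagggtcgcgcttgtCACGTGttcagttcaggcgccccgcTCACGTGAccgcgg
Atp6v0d1, chr8:108089918-108090127, minus strand: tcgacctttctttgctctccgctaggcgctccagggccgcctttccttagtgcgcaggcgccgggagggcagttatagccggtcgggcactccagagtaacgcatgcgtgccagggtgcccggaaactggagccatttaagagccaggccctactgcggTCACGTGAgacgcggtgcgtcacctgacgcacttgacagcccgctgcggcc
Lamp1, chr8:13158955-13159164, plus strand: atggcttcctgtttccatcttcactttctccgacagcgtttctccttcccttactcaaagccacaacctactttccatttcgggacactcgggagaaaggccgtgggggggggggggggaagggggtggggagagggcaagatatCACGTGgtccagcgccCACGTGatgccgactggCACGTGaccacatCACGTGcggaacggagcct
Tpp1, chr7:112900709-112900918, minus strand: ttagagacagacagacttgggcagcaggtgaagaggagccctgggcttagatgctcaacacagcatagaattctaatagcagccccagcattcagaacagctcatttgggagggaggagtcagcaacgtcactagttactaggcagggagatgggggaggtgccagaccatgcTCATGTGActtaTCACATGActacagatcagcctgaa
Ctsd, chr7:149573914-149574123, minus strand: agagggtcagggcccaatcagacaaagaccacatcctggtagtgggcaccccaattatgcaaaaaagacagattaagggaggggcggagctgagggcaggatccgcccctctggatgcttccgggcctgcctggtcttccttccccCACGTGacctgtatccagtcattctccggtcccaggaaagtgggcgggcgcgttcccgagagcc
Atp6v0d2, chr4:19849723-19849932, minus strand: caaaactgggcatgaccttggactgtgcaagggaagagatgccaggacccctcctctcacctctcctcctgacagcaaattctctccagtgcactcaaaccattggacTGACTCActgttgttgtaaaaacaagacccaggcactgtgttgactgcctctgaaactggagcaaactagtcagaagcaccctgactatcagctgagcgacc

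Stretches of 200 bases are also shown from 4 member peaks away from the 5′ ends whose accessibility is described below, each centred on a motif match or on the middle of the peak. They are on the plus strand of mm9, with matches in capitals. The Hexa and Lipa stretches held an AP-1 motif and the Ctsc stretch a PU.1 motif on the minus strand, whereas the Lamp2 stretch held none of the 5 motifs. The Lipa peak is in the authors' promoter table and the others in the distal table.
Hexa +5.0 kb, chr9:59392587-59392786, plus strand: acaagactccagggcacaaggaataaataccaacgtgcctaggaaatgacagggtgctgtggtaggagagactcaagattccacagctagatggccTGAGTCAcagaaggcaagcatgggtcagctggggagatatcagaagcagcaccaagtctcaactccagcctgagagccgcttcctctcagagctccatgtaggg
Lipa +17.1 kb, chr19:34583943-34584142, plus strand: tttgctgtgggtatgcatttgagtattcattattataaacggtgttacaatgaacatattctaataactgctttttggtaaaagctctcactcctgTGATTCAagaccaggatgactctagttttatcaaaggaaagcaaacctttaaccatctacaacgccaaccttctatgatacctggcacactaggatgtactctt
Ctsc +22.2 kb, chr7:95447823-95448022, plus strand: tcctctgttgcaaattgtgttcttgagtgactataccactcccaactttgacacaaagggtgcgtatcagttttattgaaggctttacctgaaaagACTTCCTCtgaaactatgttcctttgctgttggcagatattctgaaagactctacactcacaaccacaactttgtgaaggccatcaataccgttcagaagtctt
Lamp2 -9.9 kb, chrX:35819454-35819653, plus strand: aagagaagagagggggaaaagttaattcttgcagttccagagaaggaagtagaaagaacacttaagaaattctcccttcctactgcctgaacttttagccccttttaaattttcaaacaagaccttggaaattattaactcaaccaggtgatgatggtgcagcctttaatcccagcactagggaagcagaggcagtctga
In the middle 500 bases of all member distal peaks, AP-1 motifs were in 20.2% against 19.3% of all distal peaks, and PU.1 motifs in 4.91% against 6.98%. In member promoter peaks the E-box was in 8.52% against 8.33% of all promoter peaks, so the E-box share was above the background at the 5′ ends and close to it across the peaks of the promoter class, many of which lay elsewhere in the windows.

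Member peaks were stronger and wider than most. Their median was 74.7 normalized counts against 32.9 for all tested peaks, and their median width 1220 bp against 956 bp. Of the 37 genes, 33 had a promoter peak overlapping 1000 bp upstream to 100 bp downstream of the 5′ end. The highest promoter levels in unstimulated cells, per kb of peak, were those of Gusb (β-glucuronidase) with 719, the V-ATPase subunit gene Atp6v1a with 701 and Glb1 (β-galactosidase) with 691 normalized counts, at the 97.8th, 97.5th and 97.3rd percentile of all promoter peaks. The lowest were those of the tetraspanin gene Cd63 with 31.7 and of Ctsb with 29.4, at the 23.8th and 18.5th percentile. Ctsb, which encodes a cysteine protease, had a CLEAR core at its 5′ end, but its promoter peak ended upstream of the sequence shown. For Ctsl, Grn, Ctsz and Npc2 the nearest peak was one of the distal class, 178, 359, 611 and 1145 bp from the 5′ end.

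A peak was called when its FDR in edgeR's quasi-likelihood test, after Benjamini-Hochberg adjustment across the 194230 tested peaks, was under 0.05 and its |log2 fold-change| above 0.5. After LPS, 72 of the 522 member peaks fell and 40 rose. Of all peaks, 10.2% were called lower and 11.7% higher, so the members were lower more often (13.8%) and higher less often (7.66%) than the background. The median log2 fold-change was -0.11 for members and -0.03 for all tested peaks. In the promoter class 25 members fell and 11 rose, against 6.71% lower and 14.3% higher of all promoter peaks. In the distal class 47 fell and 29 rose, against 11.0% lower and 11.1% higher of all distal peaks. Without replicate 3, the order of the counts turned, with 75 higher and 55 lower. Of all 194230 tested peaks, 25513 were higher and 15649 lower in that setting. There the members were still lower more often than the background, but not higher less often. In each other setting tried more members were lower than higher.

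Both agents moved member peaks mostly the other way in LPS-treated cells. With LPS + (+)-JQ1 against LPS, 32 member peaks rose and 6 fell, where 1.74% of all peaks were called higher and 3.49% lower. The members' share was 6.13% higher and 1.15% lower, and the median was 0.13 against 0.00. With LPS + IL-10 against LPS, 33 rose and 6 fell, against 4.26% higher and 4.51% lower of all peaks. The median was 0.13 against -0.01. Both comparisons and the LPS comparison share the LPS libraries, so their values are given side by side and not as separate evidence. Leaving out replicate 2 left 9 higher for LPS + (+)-JQ1 and 20 for LPS + IL-10, leaving out replicate 3 left 15 and 23, and leaving out replicate 1 left 33 and 19.

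Some marker lists of other cell types moved in the same comparisons. Between unstimulated and LPS libraries the fibroblast and T cell lists separated, while the B cell, neutrophil, erythroid and epithelial lists overlapped. The summed promoter level of the fibroblast list (3 of 4 genes, Col1a2 having no promoter peak) was 185 to 218 in unstimulated cells and 257 to 297 after LPS, with 214 to 253 for LPS + (+)-JQ1 and 235 to 253 for LPS + IL-10. That of the T cell list (2 of 4 genes, Cd3e and Cd3g having none) was 70.9 to 85.0 in unstimulated cells, 43.7 to 57.8 after LPS, 59.2 to 73.4 with LPS + (+)-JQ1 and 46.1 to 62.7 with LPS + IL-10. The macrophage list, with all 7 genes, had 2365 to 2631 after LPS and 2856 to 3256 with LPS + (+)-JQ1. For the fibroblast, T cell and macrophage lists, the LPS libraries overlapped with none of the groups whose values are given here, other than with LPS + IL-10 for the T cell list. The part of these lists in the members' counts was not tested.

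**Figure D1:**
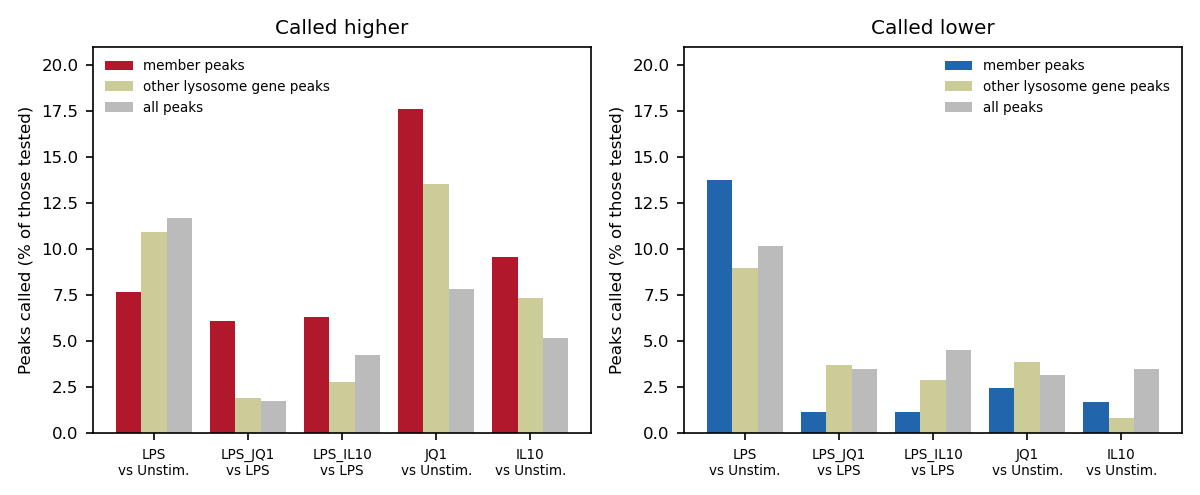
The bars give the percentage of tested peaks called higher (left) and lower (right) in 5 comparisons, for the 522 member peaks, for 722 peaks of 50 other lysosome genes and for all 194230 tested peaks. Member peaks stand above both other sets for calls lower after LPS (13.8%) and for calls higher in the other 4 comparisons, from 6.13% with LPS + (+)-JQ1 to 17.6% with (+)-JQ1 alone.

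Calls depended on peak strength, and member peaks are strong. Among peaks with a mean of at least 50 normalized counts, 15.7% of 319 member peaks were lower and 10.3% higher after LPS, against 9.26% and 22.0% of all such peaks. With LPS + (+)-JQ1, 9.72% of these members rose against 3.74%. With LPS + IL-10, 8.46% rose against 7.25%, a share close to that of equally strong peaks, and 1.57% fell against 6.07%. The 722 peaks around 50 other lysosome genes, a list of the same pathway, had 79 higher and 65 lower after LPS, 14 higher and 27 lower with LPS + (+)-JQ1, and 20 higher and 21 lower with LPS + IL-10. In these 3 comparisons the other lysosome genes did not have the members' split; the difference between the lists was not tested.

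The share of each library's counts that fell in member peaks needs no scaling between libraries. Member promoter peaks held 0.628% ± 0.003 (SD) of all promoter counts in unstimulated cells and 0.529% ± 0.009 after LPS, and 0.562% ± 0.011 with LPS + (+)-JQ1 and 0.582% ± 0.007 with LPS + IL-10. In resting cells the share was 0.605% ± 0.008 with (+)-JQ1 alone and 0.629% ± 0.004 with IL-10 alone. Member distal peaks held 0.392% ± 0.026 of distal counts in unstimulated cells, 0.442% ± 0.003 with (+)-JQ1 alone, 0.429% ± 0.001 with IL-10 alone, 0.357% ± 0.007 after LPS, 0.395% ± 0.009 with LPS + (+)-JQ1 and 0.399% ± 0.003 with LPS + IL-10. In both classes the 3 LPS libraries lay below all 15 other libraries. A share also depends on the counts in all other peaks of its class. The mean normalized count per member promoter peak did not fall after LPS, with 254 in unstimulated cells and 267 after LPS. It was 291 with LPS + (+)-JQ1 and 264 with LPS + IL-10. Per member distal peak these means were 106.7, 107.9, 118.5 and 121.1. An exact permutation test of 3 libraries against 3 cannot give a two-sided p below 0.1.

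**Figure D2:**
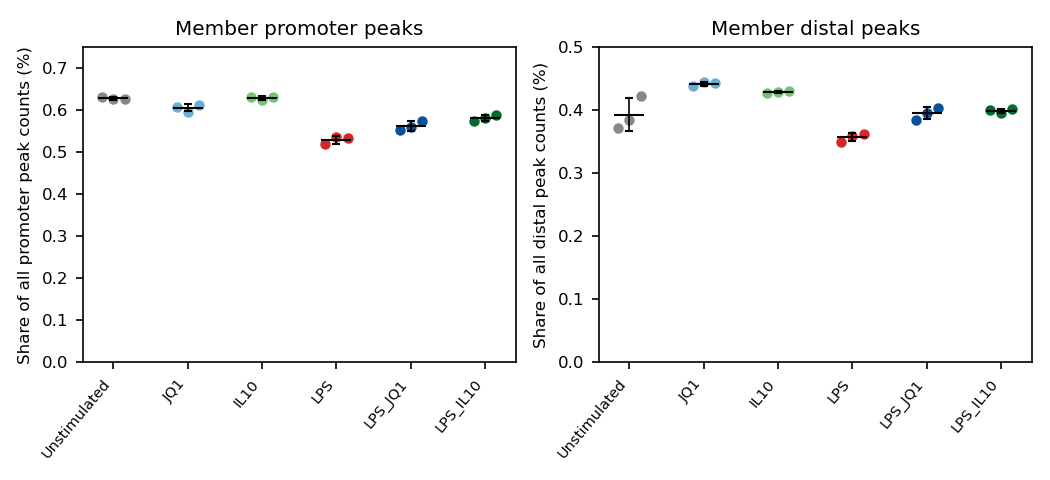
Each point is 1 library, and its height is the percentage of all promoter peak counts (left) or distal peak counts (right) that fell in member peaks, with the mean and SD of 3 libraries per group as bars. The 3 LPS libraries (0.519% to 0.535% and 0.350% to 0.363%) lie below every other library in both panels.

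The 10 cathepsin genes held 26 of the 72 falls after LPS and 25 of the 33 rises with LPS + IL-10. Of their 131 peaks, 26 fell and 8 rose after LPS, and 7 of the 8 that rose lay at Ctsc. These were 19.85% lower and 6.11% higher, against 10.2% and 11.7% of all peaks. The share higher was 19.1% with LPS + IL-10, against 4.26% of all peaks, and 9.92% with LPS + (+)-JQ1, against 1.74%. With LPS + IL-10 against LPS, 25 rose and none fell (median log2 fold-change 0.26), and this count stayed between 15 and 29 higher and at most 1 lower under every other scaling and with each replicate left out. With LPS + (+)-JQ1, 13 rose and 5 fell, 4 of the 5 at Ctsc and 1 at Ctss; without replicate 2 the split was 2 to 4.

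Ctsa, which encodes a serine carboxypeptidase that also protects β-galactosidase and neuraminidase, had the member peak with the steepest fall after LPS, followed by a peak at Ctsd. Apart from the peak at -0.9 kb, the Ctsa peaks described here lay nearer to the 5′ end of another gene, Neurl2 for those at +4.2, +6.9 and +9.4 kb. A peak 4.2 kb into the gene (chr2:164660840-164664287, coding exons of Ctsa) had 270, 324 and 414 normalized counts in the unstimulated libraries, 110, 108 and 99.9 after LPS, 153, 155 and 164 with LPS + (+)-JQ1 and 302, 352 and 372 with LPS + IL-10. The LPS libraries were the lowest and overlapped with no other group, LPS + (+)-JQ1 lay just above them, and LPS + IL-10 reached the unstimulated range. In resting cells the peak had 300, 317 and 350 with (+)-JQ1 alone and 581, 639 and 718 with IL-10 alone. It fell after LPS (log2 fold-change -1.67 ± 0.15, adjusted p = 1.7e-16) and was higher with LPS + IL-10 than with LPS (log2 fold-change 1.69 ± 0.15, adjusted p = 8.3e-16), with a smaller rise for LPS + (+)-JQ1 (log2 fold-change 0.57 ± 0.16, adjusted p = 0.016). IL-10 alone raised it by 0.94 (adjusted p = 4.0e-07).

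A pair of neighbouring Ctsa peaks, which also overlap the neighbouring lipid transfer gene Pltp, had the same order of the groups with LPS. The one at +6.9 kb (chr2:164664439-164666018) had 165, 176 and 228 in unstimulated cells, 37.1, 21.6 and 40.4 after LPS, 69.2, 67.7 and 48.8 with LPS + (+)-JQ1 and 107, 118 and 99.2 with LPS + IL-10. Its fall after LPS was the steepest of any member peak (log2 fold-change -2.53 ± 0.21, adjusted p = 4.4e-19), and both agents raised it in LPS-treated cells, by 0.88 (adjusted p = 0.0096) for (+)-JQ1 and 1.71 (adjusted p = 1.4e-09) for IL-10. The one at +9.4 kb (chr2:164666408-164669102) had 323, 264 and 290 in unstimulated cells, 69.0, 60.0 and 67.3 after LPS, 88.0, 112 and 141 with LPS + (+)-JQ1 and 176, 220 and 181 with LPS + IL-10. Here the LPS libraries were again below all others, and neither agent brought the peak back to the unstimulated level. The rise at +6.9 kb with (+)-JQ1 was not called without replicate 2 (0.56, adjusted p = 0.41). The small promoter-proximal peak at -0.9 kb fell by 0.98 (adjusted p = 1.1e-04) after LPS and was 1.20 (adjusted p = 3.8e-06) higher with LPS + IL-10. A wider peak 17.2 kb downstream, over Pltp, followed the same order, with -1.10 (adjusted p = 5.1e-11) after LPS and 1.12 (adjusted p = 1.8e-10) with LPS + IL-10; its position makes Pltp the nearer gene.

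Ctsd, the gene of the main lysosomal aspartic protease, lost accessibility at its 3′ side. The wide peak at +12.9 kb (chr7:149558389-149563637, over the end of Ctsd and the neighbouring gene 6330512M04Rik, whose 5′ end is nearer) had 1196, 1244 and 1634 in unstimulated cells and 305, 249 and 295 after LPS. It had 359, 450 and 399 with LPS + (+)-JQ1 and 398, 430 and 388 with LPS + IL-10. The LPS libraries stood far below all libraries without LPS, and each agent gave slightly higher values that did not overlap with LPS. The fall was log2 fold-change -2.26 ± 0.14, adjusted p = 2.0e-26. The partial rises were 0.51 (adjusted p = 0.015) and 0.52 (adjusted p = 0.0087). Peaks at +16.3, +18.9 and +21.5 kb, chosen after their values were seen, fell by 1.77, 1.90 and 1.68 and were not called with either agent. Upstream of the gene, an intergenic peak at -15.4 kb had a rise of 0.80 (adjusted p = 6.1e-05) with LPS + (+)-JQ1.

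At Ctsb the called peaks lay away from the 5′ end. The peak at +24.3 kb (chr14:63765247-63765909), beyond the 3′ end and over the cholesterol synthesis gene Fdft1, had 141, 116 and 167 in unstimulated cells, 242, 243 and 297 with (+)-JQ1 alone and 203, 205 and 224 with IL-10 alone. It had 34.5, 61.0 and 62.8 after LPS, 82.2, 92.3 and 112 with LPS + (+)-JQ1 and 101, 89.2 and 89.8 with LPS + IL-10. Both agents thus gave higher values without LPS and with it, and in neither setting did treated and untreated libraries overlap. The fold-changes were -1.43 (adjusted p = 6.9e-10) after LPS, 0.89 (adjusted p = 8.1e-04) and 0.84 (adjusted p = 0.0012) for (+)-JQ1 and IL-10 in LPS-treated cells, and 0.89 (adjusted p = 1.7e-05) and 0.58 (adjusted p = 0.011) for the agents alone. Of the 5 Ctsb peaks that fell after LPS, all 5 rose with LPS + IL-10 and 4 with LPS + (+)-JQ1.

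Among the other cysteine cathepsins, the same order was seen at fewer peaks. Ctsl, a broad protein-degrading protease, had 4 peaks that fell after LPS and 3 that rose with LPS + IL-10, the strongest at +6.9 kb with -0.83 (adjusted p = 1.3e-06) and 0.62 (adjusted p = 9.0e-04). Ctsk, a collagen-degrading protease best known from osteoclasts, had 4 peaks that rose with LPS + IL-10, by 0.59 to 0.74. Ctsh, an aminopeptidase, had 2 of 16 peaks that fell after LPS and 2 others that rose with LPS + IL-10. Ctsz had 2 of 18 that fell and 1 that rose. Of all peaks, 10.2% fell after LPS and 4.26% rose with LPS + IL-10. Ctsf had a single call in the 3 comparisons of LPS-treated cells, a rise after LPS in a weak peak over the neighbouring gene Actn3. The members of this paragraph were summarised after their values were seen, apart from their promoter peaks.

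Ctsc, the dipeptidyl peptidase that activates serine proteases of granules, went the opposite way. Its peak at +22.2 kb (chr7:95446021-95451589) had 175, 124 and 122 in unstimulated cells, 118, 120 and 119 with (+)-JQ1 alone and 380, 368 and 383 with IL-10 alone. It had 296, 452 and 532 after LPS, 248, 210 and 179 with LPS + (+)-JQ1 and 906, 899 and 702 with LPS + IL-10. LPS and IL-10 each raised this peak, the LPS + IL-10 libraries were the highest of all, and those with LPS + (+)-JQ1 lay below those with LPS. The changes were log2 fold-change 1.61 ± 0.16, adjusted p = 5.1e-15 for LPS, log2 fold-change 1.44 ± 0.16, adjusted p = 3.2e-11 for IL-10 alone, log2 fold-change 0.97 ± 0.14, adjusted p = 1.1e-07 for IL-10 with LPS and log2 fold-change -1.02 ± 0.15, adjusted p = 3.3e-07 for (+)-JQ1 with LPS. The wide peak at +13.2 kb (chr7:95435389-95444148) had the same order, with 298, 290 and 290 in unstimulated cells, 665, 884 and 950 after LPS, 417, 432 and 396 with LPS + (+)-JQ1 and 1505, 1436 and 1090 with LPS + IL-10. A narrower peak between them at +18.5 kb rose by 1.46 with LPS and 1.42 with IL-10 alone and changed by -0.93 with LPS + (+)-JQ1. In all, 7 Ctsc peaks rose after LPS and none fell, 4 fell with LPS + (+)-JQ1 and 3 rose with LPS + IL-10.

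The neutrophil marker list moved with IL-10 too. Its summed promoter level, which rests on S100a8 and Elane since Mpo and Ly6g had no promoter peak, was 244 to 288 after LPS and 436 to 513 with LPS + IL-10, and 202 to 423 in unstimulated cells against 430 to 488 with IL-10 alone. Its part in the Ctsc result was not tested.

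Ctss, which processes the invariant chain for antigen presentation, differed again. Its 17.8 kb wide peak over the 3′ part of the gene, nearer to the 5′ end of Hormad1 (chr3:95342169-95360003) had 705, 675 and 713 in unstimulated cells, 261, 379 and 348 with (+)-JQ1 alone and 993, 957 and 1044 with IL-10 alone. It had 603, 718 and 882 after LPS, 337, 404 and 388 with LPS + (+)-JQ1 and 858, 876 and 821 with LPS + IL-10. (+)-JQ1 lowered it both without LPS (log2 fold-change -1.09 ± 0.14, adjusted p = 3.6e-08) and with it (log2 fold-change -0.96 ± 0.14, adjusted p = 1.4e-07). The LPS change was 0.07 (adjusted p = 0.75), with LPS libraries on both sides of the unstimulated ones.

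**Figure D3:**
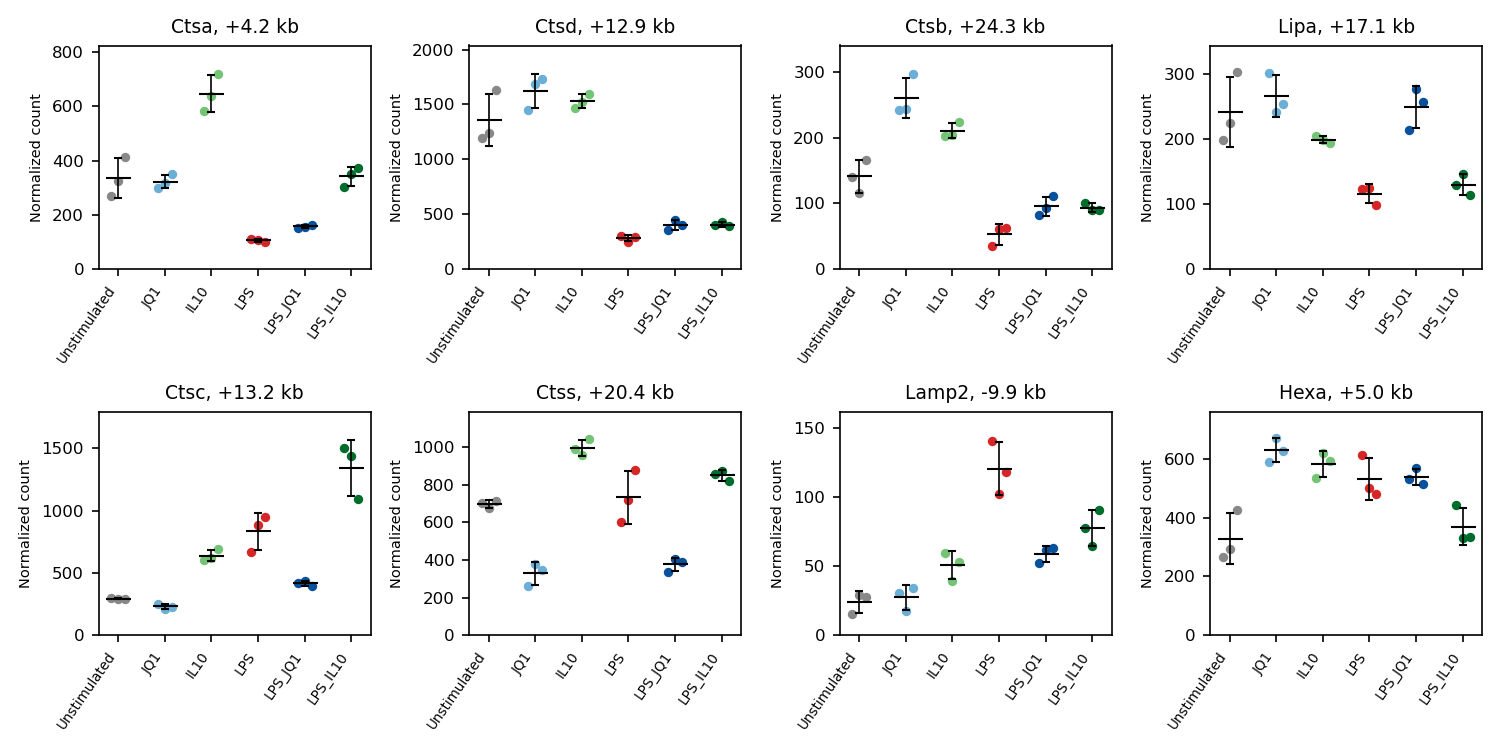
Normalized counts of 8 member peaks are drawn for each of the 18 libraries, with the mean and SD of 3 libraries per condition as bars and the distance from the gene's 5′ end in each title. Ctsa, Ctsd, Ctsb and Lipa drop after LPS, Ctsc and Lamp2 rise, and the Ctss peak is lowest in the (+)-JQ1 groups, between 261 and 404.

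Of the 124 peaks at 8 genes of other hydrolases, 15 fell and 8 rose after LPS, and with LPS + (+)-JQ1 8 rose and none fell. The shares after LPS were 12.1% lower and 6.45% higher, against 10.2% and 11.7% of all peaks. With LPS + (+)-JQ1 6.45% rose, against 1.74% of all peaks. Under DESeq2 the LPS split was 11 to 11, and without replicate 3 it was 15 higher and 9 lower. Lipa, the lysosomal acid lipase that releases cholesterol and fatty acids from lipoproteins, had 6 of the 8 rises. Its peak at +17.1 kb (chr19:34582531-34587229) had 199, 225 and 303 in unstimulated cells, 123, 125 and 98.7 after LPS, 213, 277 and 257 with LPS + (+)-JQ1 and 129, 147 and 114 with LPS + IL-10. The LPS + (+)-JQ1 libraries returned to the unstimulated range, while those with LPS + IL-10 overlapped with LPS. The changes were -1.06 (adjusted p = 3.4e-08) after LPS, 1.11 (adjusted p = 6.4e-08) for (+)-JQ1 and 0.16 (adjusted p = 0.63) for IL-10. The other 5 rises with LPS + (+)-JQ1, at +1.6 to +24.3 kb, were between 0.60 and 0.76. At the other end of the window a peak at -25.4 kb (chr19:34626063-34628747) rose steeply after LPS, from 96.8, 131 and 129 to 590, 563 and 681 (log2 fold-change 2.35 ± 0.15, adjusted p = 3.1e-25), and was lower with LPS + IL-10, with 402, 305 and 374 (log2 fold-change -0.76 ± 0.14, adjusted p = 2.3e-05). It lies in Ifit2, an interferon-induced gene whose 5′ end is nearer.

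Hexa encodes the α subunit of β-hexosaminidase A, which degrades gangliosides. The AP-1 containing peak in its intron at +5.0 kb (chr9:59391921-59392954) had 265, 293 and 427 in unstimulated cells and was higher in every other group, with an overlap only for LPS + IL-10. It had 592, 672 and 628 with (+)-JQ1 alone, 536, 623 and 596 with IL-10 alone, 616, 503 and 481 after LPS, 534, 570 and 515 with LPS + (+)-JQ1 and 444, 331 and 335 with LPS + IL-10. Each agent alone raised it (0.70 (adjusted p = 7.4e-05) for LPS, 0.94 (adjusted p = 6.8e-07) for (+)-JQ1 and 0.83 (adjusted p = 2.4e-05) for IL-10), while adding IL-10 to LPS changed it by -0.53 (adjusted p = 0.0065). At Glb1, 5 peaks fell after LPS, by 0.68 to 1.31, of which 1 was still called without replicate 3. Gusb had 1 fall among 18 peaks, at +12.4 kb (-0.98 (adjusted p = 1.4e-08)), and Neu1, the sialidase, had no call after LPS.

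Of 98 peaks at 7 membrane protein genes, 15 fell and 8 rose after LPS, 6 of the 8 at Lamp2. As shares these were 15.3% lower and 8.16% higher, against 10.2% and 11.7% of all peaks. Without replicate 3 the split was 12 to 12. Lamp2 is needed for the fusion of autophagosomes with lysosomes. Its intergenic peak at -9.9 kb (chrX:35819007-35820099) had 15.1, 28.9 and 27.8 in unstimulated cells, 30.2, 17.1 and 34.4 with (+)-JQ1 alone and 59.1, 39.3 and 53.0 with IL-10 alone. It had 141, 102 and 118 after LPS, 51.9, 61.5 and 62.6 with LPS + (+)-JQ1 and 77.3, 64.2 and 90.6 with LPS + IL-10. The LPS libraries were the highest and overlapped with no other group, and both agents gave intermediate values with LPS. The peak rose by 2.30 (adjusted p = 1.5e-13) after LPS and changed by -1.02 (adjusted p = 4.5e-04) with LPS + (+)-JQ1 and -0.63 (adjusted p = 0.034) with LPS + IL-10. The last of these was not called with DESeq2 (adjusted p = 0.054), with total counts as the scaling, or with any one replicate left out.

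Laptm5, a lysosomal protein of blood cells that takes part in the degradation of receptors, had falls at its 3′ end, the one at +23.9 kb being nearer to the 5′ end of Matn1. The peak at +23.9 kb (chr4:130491369-130494598) had 225, 261 and 337 in unstimulated cells, 132, 168 and 156 with (+)-JQ1 alone, 63.9, 83.5 and 62.8 after LPS, 63.4, 86.1 and 78.0 with LPS + (+)-JQ1 and 95.4, 115 and 117 with LPS + IL-10. (+)-JQ1 alone lowered it (log2 fold-change -0.86 ± 0.16, adjusted p = 1.7e-05), LPS lowered it as well (log2 fold-change -1.97 ± 0.17, adjusted p = 2.8e-18), and with LPS the (+)-JQ1 libraries overlapped with those of LPS. The wide peak at +14.5 kb fell by 1.34 after LPS and by 0.77 (adjusted p = 1.3e-05) with (+)-JQ1 alone. Scarb2, the receptor that carries glucocerebrosidase to lysosomes, had one of the few member promoters called after LPS (0.68 (adjusted p = 5.4e-05)), and an intron peak at +18.8 kb, chosen after its values were seen, rose by 0.99 (adjusted p = 4.5e-06) with LPS + IL-10. After LPS, 3 of 10 peaks near Lamp1 and 4 of 11 near the calcium channel gene Mcoln1 were lower. Near Cd63 it was 1 of 12, over neighbouring genes, a share not above the 10.2% of all peaks. The promoter-window peak of Cd68, a macrophage glycoprotein, rose by 0.63 (adjusted p = 0.012) with LPS + (+)-JQ1. That peak lay 744 bp from the 5′ end, over the neighbouring gene Eif4a1.

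The genes of lipid handling and saposins had the reverse split, with 11 of 70 peaks higher and 4 lower after LPS, although with total counts as the scaling it was 5 to 6 and with loess offsets 7 to 6. Under TMM 15.7% were higher and 5.71% lower, against 11.7% and 10.2% of all peaks. Npc2, which hands cholesterol to NPC1 for export, had 6 rises and no fall. The largest, at +8.0 kb (chr12:86104303-86107839), had 202, 157 and 167 in unstimulated cells and 642, 590 and 599 after LPS, with 479, 497 and 462 for LPS + (+)-JQ1 and 558, 456 and 583 for LPS + IL-10. The change was a log2 fold-change of 1.80 ± 0.14, adjusted p = 3.5e-20. All 9 libraries with LPS were above all 9 without it, and no Npc2 peak was called for either agent in LPS-treated cells. Grn, the progranulin gene, had 3 rises, led by the peak nearest to its 5′ end (0.81 (adjusted p = 1.9e-06)). Psap, which encodes the precursor of the saposins, had 2 rises and 2 falls after LPS and 3 rises with LPS + (+)-JQ1, the largest 0.74 (adjusted p = 0.0029) at -15.9 kb. Npc1, the membrane cholesterol transporter, had 2 falls among 12 peaks, at +21.7 and +24.8 kb.

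Of 70 peaks at 6 V-ATPase genes, 7 fell and 3 rose after LPS, and 4 rose and none fell with LPS + (+)-JQ1. The share lower after LPS was 10.0%, close to the 10.2% of all peaks, and 4.29% were higher against 11.7%. With LPS + (+)-JQ1 5.71% rose, against 1.74% of all peaks. Without replicate 3 the LPS split was 5 lower and 10 higher, and without replicate 2 no peak was called with LPS + (+)-JQ1. Atp6v0d2 encodes the d2 subunit found in osteoclasts and macrophages. Its promoter peak (chr4:19849291-19851000), which spans the AP-1 motif shown above, had 59.1, 91.9 and 116 in unstimulated cells, 88.9, 78.8 and 71.8 after LPS, 77.9, 77.9 and 80.1 with LPS + (+)-JQ1 and 42.9, 34.8 and 34.5 with LPS + IL-10. The LPS + IL-10 libraries were below every other library (log2 fold-change -1.09 ± 0.22, adjusted p = 1.2e-04). An intergenic peak at -19.9 kb (chr4:19869231-19869981) had 95.5, 102 and 172 in unstimulated cells, 272, 275 and 281 with (+)-JQ1 alone, 138, 224 and 228 with IL-10 alone, 44.0, 29.1 and 59.5 after LPS, 40.4, 121 and 83.0 with LPS + (+)-JQ1 and 38.2, 41.4 and 40.6 with LPS + IL-10. The (+)-JQ1 libraries were the highest (1.16 (adjusted p = 2.0e-06) against unstimulated), LPS lowered the peak (-1.50 (adjusted p = 3.6e-08)), and LPS + (+)-JQ1 overlapped with LPS in 1 library although its mean was higher (0.94 (adjusted p = 0.004)). Near Atp6ap1, an accessory subunit gene, a peak at -18.5 kb (chrX:71523239-71524596), inside Dnase1l1 and closer to Taz, rose from 96.8, 112 and 166 to 241, 326 and 216 with (+)-JQ1 alone (1.05 (adjusted p = 8.8e-07)).

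Neither of the 2 transcription factor genes had a call at its promoter peak after LPS. Tfeb, the main activator of lysosome genes, had 5 peaks that fell after LPS and none that rose, all within the gene at +7.5 to +25.5 kb, with log2 fold-changes from -0.57 to -1.03. None of its peaks was called with LPS + IL-10 and 1 rose with LPS + (+)-JQ1 (0.55 (adjusted p = 0.011)). Mitf had 2 intron peaks that rose after LPS, by 0.77 and 0.55, of which the first changed by -0.50 (adjusted p = 0.044) with LPS + IL-10. These peaks were chosen after their values were seen.

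**Figure D4:**
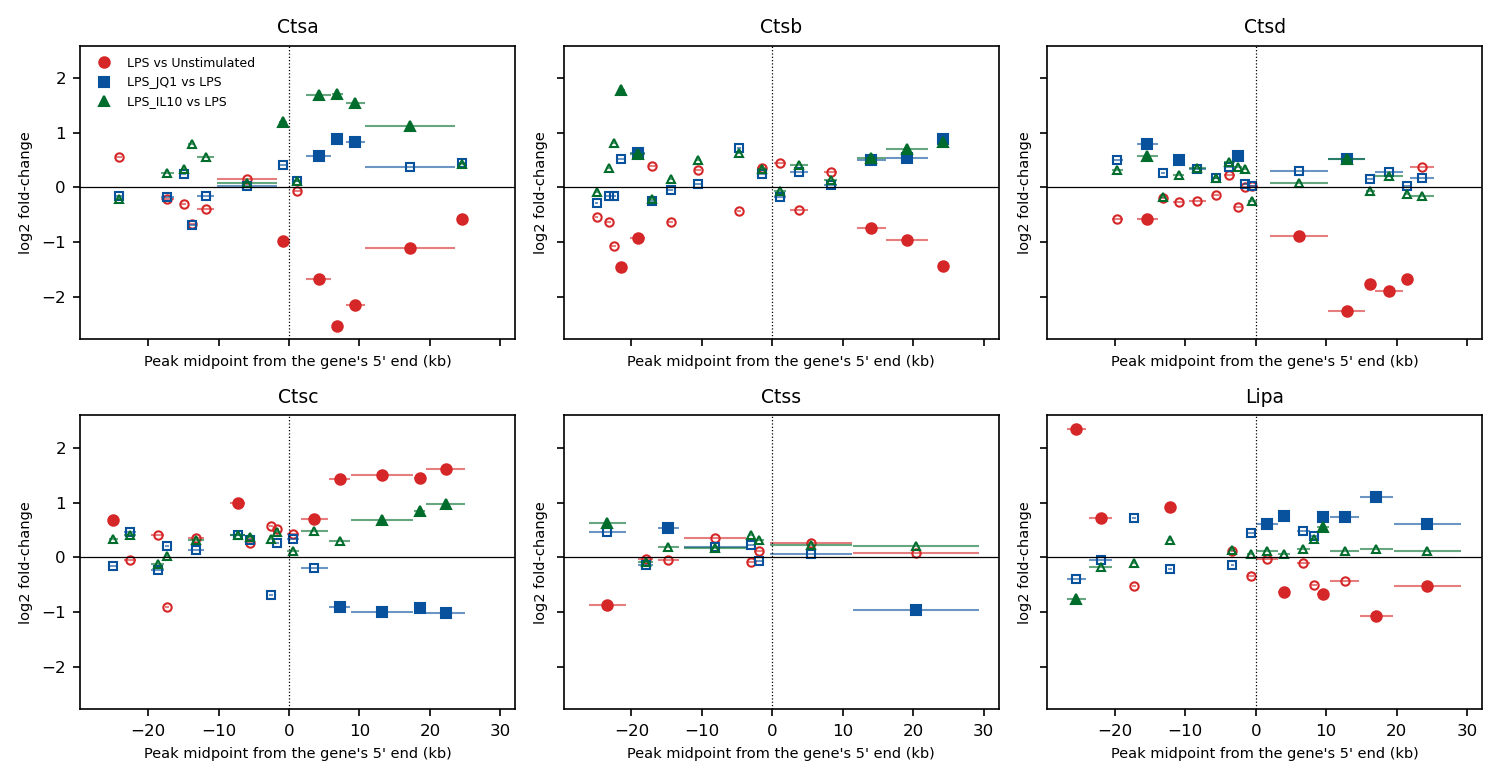
For 6 genes, each peak is drawn at its distance in kb from the 5′ end, with its width as a horizontal line and its log2 fold-change in 3 comparisons as height; filled symbols were called. At Ctsa and Ctsb most LPS falls (down to -2.53 at Ctsa) lie opposite to rises with IL-10, at Ctsd 2 of the 6 falls lie opposite to called rises with both agents, at Ctsc the LPS rises (up to 1.61) lie opposite to falls with (+)-JQ1, and at Lipa mainly (+)-JQ1 gave rises.

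The 33 promoter peaks had few calls with LPS and more with the agents alone. After LPS 2 rose (Scarb2 and the V-ATPase gene Atp6v0d1) and 1 fell (Ctsa), where 14.3% of all promoter peaks rose and 6.71% fell. With LPS + (+)-JQ1 2 rose (Lipa and the Cd68 peak, which lies over Eif4a1), and with LPS + IL-10 2 rose (Ctsa and Ctsk) and 1 fell (Atp6v0d2). With (+)-JQ1 alone 19 rose and none fell (median log2 fold-change 0.62), against 22.9% higher of all promoter peaks, and with IL-10 alone 6 rose and none fell (median 0.44), against 8.72% higher. Each of the 33 was its gene's strongest peak in the promoter window, whereas the background also holds weak peaks, which are called less often. The share among equally strong promoter peaks was not counted. The 12 promoters with an E-box and the 21 without one had median changes of 0.53 and 0.71 with (+)-JQ1 alone and 0.26 and 0.37 with LPS, and median unstimulated levels of 340 and 157 normalized counts per kb. These groups were set by the sequence at the 5′ end, which not every peak covered. The Ctsb peak, in the E-box group, lay 718 bp from it, and in the other group the Cd68, Ctsa and Cd63 peaks lay 744, 349 and 216 bp away. The medians thus do not compare peaks with and without the motif. The rises with the agents alone rest on the scaling between libraries. With loess offsets no promoter rose and 1 fell with (+)-JQ1 alone, and with total counts 4 rose and 1 fell, while with IL-10 alone none was called under either. Without replicate 3, 13 promoters rose after LPS, 23 with (+)-JQ1 alone and 20 with IL-10 alone, and without replicate 2 these counts were 2, 7 and 1.

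**Figure D5:**
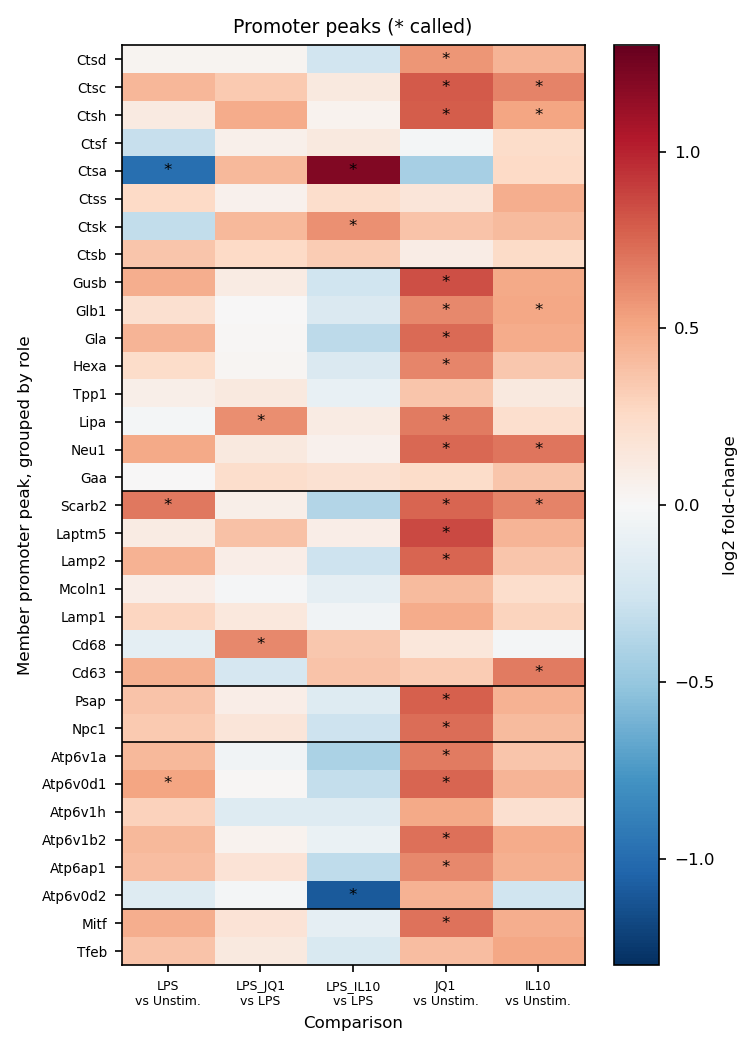
Rows are the 33 member promoter peaks grouped by role and columns are 5 comparisons; colour gives the log2 fold-change and an asterisk marks a called peak. The (+)-JQ1 alone column has 19 asterisks and is nearly all positive (median 0.62), whereas the LPS column has 3.

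Over all member peaks, 92 rose (17.6%) and 13 fell (2.49%) with (+)-JQ1 alone, against 7.85% higher and 3.15% lower of all peaks. Among peaks with a mean of at least 50 normalized counts, 28.5% of members rose, against 20.4% of all such peaks. The rises were 48 in the promoter class (27.3%), where 22.9% of all promoter peaks rose, and 44 in the distal class (12.7%), where 4.34% did. Of the other lysosome genes' peaks, 28.3% rose in the promoter class and 6.39% in the distal class. With IL-10 alone 50 rose (9.58%) and 9 fell (1.72%), against 5.16% higher and 3.5% lower of all peaks. The rises were 22 in the promoter class (12.5%, background 8.72%) and 28 in the distal class (8.09%, background 4.33%). Of the equally strong peaks, 15.4% of members rose against 12.8% of all. Every role group had more rises than falls with (+)-JQ1 alone, but with total counts as the scaling the members as a whole had 20 rises and 60 falls, and with loess offsets 11 and 21. With total counts each role group had more falls than rises, other than the V-ATPase genes with 4 of each. For IL-10 alone these settings gave 9 rises and 19 falls, and 6 and 9. Of all 194230 tested peaks, total counts gave 3828 rises and 27370 falls with (+)-JQ1 alone, and 2464 and 16658 with IL-10 alone. Loess offsets gave 2737 and 4142 of all peaks with (+)-JQ1 alone, and 2956 and 2856 with IL-10 alone. Total counts moved the median of all peaks from -0.03 to -0.26 for LPS, from -0.09 to -0.37 for (+)-JQ1 alone and from -0.05 to -0.26 for IL-10 alone. The surplus of rises over falls among members with either agent alone thus holds only relative to the TMM scaling and DESeq2's size factors. The latter gave 108 rises and 12 falls for (+)-JQ1 alone and 59 and 8 for IL-10 alone. After LPS falls outnumbered rises under all 4 scalings. The TMM factors were 1.24, 1.15 and 1.04 for unstimulated cells, with a range from 0.896 to 1.05 elsewhere. The summed macrophage marker promoters were also higher, 3374 to 3972 with (+)-JQ1 alone and 2806 to 3146 with IL-10 alone against 1847 to 2682 in unstimulated cells, as was the neutrophil list with 426 to 451 for (+)-JQ1 alone against 202 to 423; their part was not tested. Leaving out replicate 2 left 32 rises with (+)-JQ1 alone and 8 with IL-10 alone, leaving out replicate 1 left 75 and 24, and leaving out replicate 3 gave 113 and 93.

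The comparison of (+)-JQ1 alone with unstimulated cells and that of LPS + (+)-JQ1 with LPS share no library, though both come from the same mice. Of the 92 peaks that rose with (+)-JQ1 alone and the 32 that rose with LPS + (+)-JQ1, 17 were the same, 18.5% and 53.1% of each list, against 9.73% and 43.9% for all peaks. Across the 522 peaks the log2 fold-changes had a Pearson r of 0.28, against 0.21 over all peaks. For IL-10, 12 peaks were in both lists of 50 and 33, 24.0% and 36.4%, against 16.2% and 19.6% for all peaks. Here r was 0.15 for members and 0.19 for all peaks, and the Spearman rho 0.06 and 0.15. These correlations are over peaks, which are not independent replicates.

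The interaction asks whether an agent changed a peak by a different amount with LPS than without. For (+)-JQ1, 28 member peaks were lower (5.36%) and 7 higher (1.34%) with LPS than without, against 3.19% lower and 0.649% higher of all peaks. Of the 28, 19 were in the promoter class (10.8%, background 11.2%) and 9 in the distal class (2.60%, background 1.33%). For IL-10, 38 were lower (7.28%) and 11 higher (2.11%), against 5.9% lower and 2.01% higher of all peaks. Of the 38, 26 were in the promoter class (14.8%, background 16.9%) and 12 in the distal class (3.47%, background 3.33%). Among peaks with a mean of at least 50 normalized counts, 8.78% of members were lower for (+)-JQ1, against 8.13% of all such peaks. For IL-10 these shares were 11.6% and 14.7%. With total counts these splits turned to 4 lower and 27 higher for (+)-JQ1 and to 15 lower and 40 higher for IL-10, and without replicate 2 none was called for (+)-JQ1 and 3 were lower and 1 higher for IL-10. Without replicate 1, 1 was lower and 3 higher for (+)-JQ1 and 13 lower and 6 higher for IL-10.

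After LPS only Neu1 and Atp6ap1 had no called peak. No member was without a call in all 5 comparisons. Each gene had 7 to 23 peaks, and 11.7% of all peaks were called higher and 10.2% lower after LPS. A window with that many peaks is likely to hold a call, and the share over other genes was not counted.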

How the data were processed

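ATAC-seq libraries of 18 samples, 3 mice in each of 6 conditions, were grouped by their titles, and, as the labels describe matched samples of 3 mice numbered 1 to 3, libraries with the same number were taken to share a mouse. According to the methods, reads were aligned by the authors to mm9 (bowtie2 in PEPATAC, unique alignments kept), MACS2 peaks of the single libraries were merged to a union and peaks were classed as promoter (1000 bp upstream to 100 bp downstream of a 5′ end) or distal with ChIPSeeker. The deposited values are raw counts per peak, not normalized and not pooled. The tool that counted reads is not given in the sources used here, and 6 columns that match none of these samples were not used. Only reads in peaks were available to these tests.

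Tests used edgeR 4.0.16 under R 4.3.3 on these counts (filterByExpr, TMM, all 6 groups in one quasi-likelihood fit without a block, Benjamini-Hochberg over 194230 peaks), and errors of log2 fold-changes are standard errors. The methods used DESeq2, and DESeq2 1.42.0 and limma 3.58.1 (loess offsets) served as alternatives. The fit was tested on simulated data with known changes. The mean r between deviations from the group mean was 0.0057 for 45 pairs with the same number, against -0.0029 over 90 other pairs. Member windows used gene records of the mm9 annotation, and sequences came from NCBIM37.

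The members, lists, motifs and tests were chosen with earlier results of these data known. Named peaks were each gene's strongest promoter-table peak in the promoter window and, per comparison, the 3 largest rises and 3 largest falls (2 for an interaction) among called peaks with a mean of at least 50 normalized counts that moved one way in each of the 3 numbered pairs. Other peaks are said to be chosen after their values were seen. Counts of genes and role groups summarise all called member peaks. Depth sets what can be called, and no interval for counting error was used. The p-values rest on the spread between libraries within groups, estimated over all 6 groups and with information shared across peaks. This spread mixes mouse, culture, lane and counting differences, and the pairing by mouse was not used in the main fit.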

Additional observations from a re-analysis of the deposited data

Results flagged for a closer look

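The change made by an agent differed with and without LPS at 4 of the named member peaks, by the interaction term of edgeR's quasi-likelihood fit with Benjamini-Hochberg adjustment over all peaks. A positive value means that the agent's log2 fold-change was higher with LPS than without.

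At the Ctsa peak at +6.9 kb (chr2:164664439-164666018) the difference was 1.37 for (+)-JQ1 (adjusted p = 0.0038) and 1.20 for IL-10 (adjusted p = 0.0017). At the Ctsa peak at +9.4 kb (chr2:164666408-164669102) it was 1.27 for (+)-JQ1 (adjusted p = 5.0e-04) and 1.42 for IL-10 (adjusted p = 5.8e-06). Both agents raised these peaks in LPS-treated cells. In resting cells the log2 fold-changes were -0.48 at +6.9 kb and -0.45 at +9.4 kb for (+)-JQ1, neither called, and 0.51, which was called, and 0.13, which was not, for IL-10. Without replicate 2, the differences for (+)-JQ1 at both peaks and for IL-10 at +6.9 kb were not called (adjusted p = 0.24, 0.053 and 0.19), and without replicate 1 that for (+)-JQ1 at +6.9 kb was not (adjusted p = 0.052).

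At the Lamp2 peak at -9.9 kb (chrX:35819007-35820099) the difference was -1.68 for IL-10 (adjusted p = 3.3e-04), where IL-10 raised the peak without LPS and lowered it with LPS. For (+)-JQ1 it was -1.21 (adjusted p = 0.038), which was not called with total counts, with loess offsets, with only the groups of the contrast or with any one replicate left out (adjusted p from 0.056 to 0.49). Without replicate 1 the IL-10 difference was -1.21 (adjusted p = 0.061).

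At the Hexa intron peak at +5.0 kb (chr9:59391921-59392954) the difference was -1.36 for IL-10 (adjusted p = 1.4e-06) and -0.92 for (+)-JQ1 (adjusted p = 0.0042). Each agent raised this peak in resting cells. In LPS-treated cells IL-10 lowered it (log2 fold-change -0.53) and (+)-JQ1 gave 0.01. The (+)-JQ1 difference was not called without replicate 1 or without replicate 2 (adjusted p = 0.099 and 0.27).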

How the results depend on the processing

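Counts are of member peaks called higher and lower. In the 35 log2 fold-changes of peaks named by a comparison, no alternative turned a direction: 435 values kept an FDR under 0.05 and 20 did not, of which 1 concerned the Ctsa peak at +6.9 kb with LPS + (+)-JQ1, 5 the Lamp2 peak with LPS + IL-10 and 14 the interactions. These peaks were picked as large called changes, and outside the interactions as moving one way in all 3 numbered pairs. A turned direction was thus unlikely from the outset, and its absence is no separate evidence. With the replicate number as a block the counts were 41 higher and 72 lower for LPS, 33 and 6 for LPS + (+)-JQ1, 33 and 6 for LPS + IL-10, 94 and 12 for (+)-JQ1 alone, 52 and 9 for IL-10 alone, 7 and 23 for the interaction with (+)-JQ1 and 11 and 34 for that with IL-10, and the block changed no other call among the named peaks. Total counts in place of TMM gave 19 higher and 126 lower for LPS, 2 lower for LPS + IL-10, 20 and 60 for (+)-JQ1 alone, 9 and 19 for IL-10 alone, 27 and 4 for the interaction with (+)-JQ1 and 40 and 15 for that with IL-10. The share of calls that were higher went from 35.7% to 13.1% for LPS, from 84.6% to 95.7% for LPS + IL-10, from 87.6% to 25.0% for (+)-JQ1 alone, from 84.7% to 32.1% for IL-10 alone, from 20% to 87.1% and from 22.4% to 72.7% for the interactions. Loess offsets gave 11 and 21 for (+)-JQ1 alone, 6 higher for IL-10 alone, 21 and 1, and 25 and 7 for the interactions, with shares of 24.8% for LPS, 34.4%, 40.0%, 95.5% and 78.1%. Requiring 10 counts in every library gave 26 higher for LPS, 27 lower for (+)-JQ1 alone, 24 higher for IL-10 alone, and 14 and 22 higher for the interactions. An FDR under 0.01 gave 18 higher for LPS + (+)-JQ1, 3 lower for LPS + IL-10, 2 lower for IL-10 alone, 3 and 3, and 4 and 19 for the interactions. DESeq2 gave 3 lower for LPS + IL-10 and 49 lower for the interaction with (+)-JQ1, and only the groups of the contrast gave 10 lower for the latter. A window of 10 kb, which holds fewer peaks, gave 20 and 26 for LPS, 13 and 3 for LPS + (+)-JQ1, 15 higher for LPS + IL-10, 55 and 4 for (+)-JQ1 alone, 24 and 3 for IL-10 alone, 17 lower, and 6 and 21 for the interactions. Windows around any transcript, which hold more, gave 22 lower for LPS + (+)-JQ1, 22 lower for (+)-JQ1 alone and 15 higher for its interaction. Peaks nearest to a member gave 4 lower for (+)-JQ1 alone, 4 lower for IL-10 alone, and 3 higher, and 5 and 25 for the interactions. Leaving out one replicate, or unstimulated replicate 1 alone (chosen after seeing the data, as the library with the lowest total), gave 28 to 75 higher and 52 to 73 lower for LPS, 9 to 34 and 5 to 8 for LPS + (+)-JQ1, 19 to 35 and 2 to 6 for LPS + IL-10, 32 to 113 and 8 to 11 for (+)-JQ1 alone, 8 to 93 and 1 to 6 for IL-10 alone, 0 to 7 and 0 to 41 for the interaction with (+)-JQ1, and 1 to 10 and 3 to 48 for that with IL-10. The cause of these shifts was not tested. With 3 libraries per group, peaks of low count and changes in the interactions were the least sure.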
